A study of Mus musculus with 8 samples.

Results

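Nudt6, Gckr, Sox30 and Lrrc2 are 4 mouse genes on 4 chromosomes that read higher, at 5 of their 6 probe sets, on the retina arrays where Nxnl1 read low. They were chosen for that pattern from the same arrays, by earlier results of these data, and every probe set carrying 1 of the 4 gene symbols in the platform annotation was taken, which gave 6 probe sets of the 45037 in the table. Nudt6 and Lrrc2 have 2 probe sets each, and Gckr and Sox30 have 1 each. Because the readings themselves chose the genes, their levels and differences are a description and no p-value is given for them. Limma was fitted to the whole table, which gives the standard errors (SE) and the share of all probe sets called, and nothing about the members is read from that share.

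The study profiled total RNA of whole mouse retinas at postnatal day 40 on Affymetrix 3' arrays, with 1 array per sample. The labels give 3 arrays of mice homozygous for a null allele of Nxnl1, 2 arrays of heterozygous mice and 3 arrays of wild-type mice, all of the strain written BALB/c AJ. All groups were kept under the same light cycle with free access to food, and the retinal pigment epithelium (RPE) was removed at dissection. A ninth sample, which the design text counts, was not analysed here, and how the null allele was made, and whether each array stands for its own animal or a pool, is not stated in the sources used here. Values are log2 expression made by the authors with RMA, and 1 unit is a factor of 2.

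The product of Nxnl1 is the rod-derived cone viability factor, which photoreceptors make and which resembles thioredoxin. Nudt6 encodes a hydrolase of the Nudix family, whose members cleave nucleoside diphosphates linked to another group, and its gene overlaps that of fibroblast growth factor 2 (Fgf2) on the opposite strand, so that its transcript is also known as an Fgf2 antisense RNA. Gckr encodes a regulatory protein of sugar metabolism best known from the liver. Sox30 encodes a transcription factor with an HMG box, known from the mouse testis for its part in sperm formation. Lrrc2 encodes a leucine-rich repeat protein best known from heart and skeletal muscle. The 4 proteins belong to no common family.

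The members lie on chromosomes 3 (Nudt6), 5 (Gckr), 11 (Sox30) and 9 (Lrrc2) of the assembly GRCm38, and Nxnl1 lies on chromosome 8. Their promoters are shown because the 4 genes share the readings described below and no chromosome. Each sequence covers 250 bases before and 50 bases after the start of the gene in RefSeq (GRCm38.p6): chr3:37419547-37419846, minus strand, for Nudt6, chr5:31297313-31297612, plus strand, for Gckr, chr11:45980060-45980359, plus strand, for Sox30 and chr9:110951295-110951594, plus strand, for Lrrc2. Capitals mark matches, on either strand, to the GC box GGGCGG, the AP-1 element TGACTCA or the cyclic AMP response core TGACGT.
Nudt6: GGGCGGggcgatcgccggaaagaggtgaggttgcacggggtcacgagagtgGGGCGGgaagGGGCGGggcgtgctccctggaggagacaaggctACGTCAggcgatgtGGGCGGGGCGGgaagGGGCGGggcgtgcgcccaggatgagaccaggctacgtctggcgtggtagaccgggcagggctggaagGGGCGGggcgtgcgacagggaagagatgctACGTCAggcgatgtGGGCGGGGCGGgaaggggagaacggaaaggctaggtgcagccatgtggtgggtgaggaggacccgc
Gckr: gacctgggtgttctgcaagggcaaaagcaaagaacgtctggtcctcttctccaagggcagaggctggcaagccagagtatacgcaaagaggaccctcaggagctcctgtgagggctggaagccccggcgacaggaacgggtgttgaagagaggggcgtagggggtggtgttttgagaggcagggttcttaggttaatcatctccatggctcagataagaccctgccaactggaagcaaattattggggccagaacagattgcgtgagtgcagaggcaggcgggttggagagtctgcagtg
Sox30: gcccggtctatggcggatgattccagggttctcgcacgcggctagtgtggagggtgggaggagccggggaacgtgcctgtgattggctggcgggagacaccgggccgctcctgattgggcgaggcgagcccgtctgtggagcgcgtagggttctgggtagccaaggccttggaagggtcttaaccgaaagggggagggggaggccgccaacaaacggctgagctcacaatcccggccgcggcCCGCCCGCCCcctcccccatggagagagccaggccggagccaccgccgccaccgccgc
Lrrc2: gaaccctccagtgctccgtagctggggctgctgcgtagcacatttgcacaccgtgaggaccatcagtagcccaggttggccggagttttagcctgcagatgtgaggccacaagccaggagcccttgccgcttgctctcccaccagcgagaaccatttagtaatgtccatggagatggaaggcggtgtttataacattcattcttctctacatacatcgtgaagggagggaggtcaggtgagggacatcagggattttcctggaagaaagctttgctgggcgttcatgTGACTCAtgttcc

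The 4 promoters had no motif in common among those searched. The Nudt6 window held 9 matches to the GC box, some of which share a base with the next, and 2 to the cyclic AMP response core. Sox30 had 2 GC boxes, which also share bases, Lrrc2 had 1 AP-1 element, and Gckr had no match. The photoreceptor motif of CRX, TAATCC, and the E-box CACGTG were searched too and were in none of the 4 windows. Among all 32851 promoter windows of this length in the RefSeq table, 35.7% held a GC box, 7.51% the cyclic AMP response core, 5.2% the AP-1 element, 7.06% the CRX motif and 7.15% the E-box. Base composition split the genes into pairs. G and C made up 70.3% of the Nudt6 window and 70.0% of the Sox30 window, with 28 CpG dinucleotides in each, against a median of 52.7% and 7 over all windows. The Gckr and Lrrc2 windows had 56.3% and 53.7%, with 8 and 9 CpG dinucleotides.

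Nxnl1 did not follow the genotype labels on 2 arrays, and this shapes every comparison by label. Its brighter probe set, 1425696_at, read 6.13, 8.76 and 6.13 for the samples labelled homozygous 1, 2 and 3. The same probe set read 8.65 and 6.75 for heterozygous 1 and 2, against 9.22, 8.87 and 8.65 on the 3 wild-type arrays. The arrays labelled homozygous 1, homozygous 3 and heterozygous 2 were thus low, and the array labelled homozygous 2 was at the wild-type level. The dimmer probe set, 1426130_at, put the same 3 arrays lowest, between 5.47 and 5.56, with the 5 others between 6.21 and 6.79. Since these 3 arrays were picked by a reading and not by a label, no mean or test of them against the others is given. Each gene is set beside Nxnl1 array by array, and the comparisons by label are given both with all 8 arrays and with heterozygous 2 and homozygous 2 left out.

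The 8 arrays were retinal by their markers, and their pairwise correlation over all probe sets ran from 0.979 to 0.996. All 17 measured genes of a list of 20 retinal markers had means between 6.23 and 14.48 on a scale that ran from 2.5 to 14.57. Of 12 measured RPE and choroid genes, 10 had a mean above the median over all probe sets and 6 above the upper quartile. The highest of these means was 12.56, so the stated removal of the RPE does not mean that such transcripts read low. For the actin control the 5' reading minus the 3' one, a measure of RNA integrity, was -1.74, -0.69 and -1.26 on homozygous arrays 1, 2 and 3, -0.90 and -0.71 on the heterozygous arrays, and -1.81, -1.04 and -0.80 in wild type. The same measure for the Gapdh control was nearer 0, between -0.47 and 0.07 on the 8 arrays.

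The 3 arrays low in Nxnl1 also stood apart in a Y-linked gene. Eif2s3y (1417210_at) read 7.38, 9.14 and 7.77 on homozygous arrays 1, 2 and 3, 9.13 and 7.07 on the heterozygous arrays, and 3.46, 3.32 and 8.73 in wild type. The 3 arrays low in Nxnl1 thus lay between wild-type arrays 1 and 2, which were lowest, and the other three. At its second probe set, 1431642_at, they read 4.23 to 4.41, wild-type arrays 1 and 2 read 3.64 and 3.47, and the rest 5.81 to 6.47. The arrays that carry the members' pattern therefore differed from every other array in Y-linked signal too. At both probe sets wild-type arrays 1 and 2 were below every homozygous and heterozygous array. Comparisons with wild type by label are therefore not balanced for Y-linked signal, whose part in the members' readings was not tested. In whole retina, more cells of a type and more RNA per cell cannot be told apart. The number of arrays limits the precision.

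Nudt6, the Nudix hydrolase, differed between arrays at 1 of its 2 probe sets. Probe set 1456945_at read 9.20, 7.66 and 9.18 for homozygous 1, 2 and 3. For heterozygous 1 and 2 it read 7.64 and 9.20, against 7.76, 7.73 and 8.14 on the wild-type arrays. The 3 arrays with low Nxnl1 read 9.18 to 9.20, and the lowest of them lay 1.05 above the highest of the 5 others, which was wild-type array 3. Probe set 1424510_at read 6.60, 6.19 and 6.51 on homozygous arrays 1, 2 and 3, 6.40 and 6.37 on the heterozygous arrays, and 6.40, 6.35 and 6.50 in wild type. All 8 arrays thus lay within 0.42 of each other, and the groups overlapped. After mean-centring, the probe sets of Nudt6 were 0.63 apart (root mean square over the 8 arrays). Any 2 of the 4 genes were at most 0.304 apart by their most variable probe sets, and the 2 probe sets of Lrrc2 were 0.327 apart. The genes were chosen for a shared pattern, so small distances between them follow from that choice.

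Gckr, the regulator of sugar metabolism, read 10.05, 9.00 and 10.17 for homozygous 1, 2 and 3 at its probe set 1426059_at. On the arrays labelled heterozygous 1 and 2 it read 8.92 and 10.06, and on the wild-type arrays 8.47, 8.99 and 9.00. The 3 arrays with low Nxnl1 again stood 1.05 above all others, and the lowest reading of the 8 was on wild-type array 1, where Nxnl1 was highest. Sox30, the HMG-box factor, read 7.92, 6.88 and 7.85 on homozygous arrays 1, 2 and 3 at 1440509_at. Its heterozygous readings were 6.33 and 7.94, and its wild-type readings 6.16, 6.49 and 6.79. The gap between the 3 arrays and the 5 others was 0.96. The array labelled homozygous 2 was the highest of those 5.

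Lrrc2, the leucine-rich repeat gene, had the pattern at both of its probe sets. At 1427388_at it read 8.54, 7.24 and 8.70 on homozygous arrays 1, 2 and 3, then 7.30 and 8.43 on heterozygous arrays 1 and 2, and 7.36, 7.52 and 7.14 in wild type, which left a gap of 0.91. At 1453628_s_at, whose suffix marks probes shared by several transcripts, it read 8.85, 8.38 and 9.09 on the homozygous arrays, 8.23 and 9.44 on the heterozygous arrays, and 7.75, 8.18 and 8.27 in wild type. Here the gap was 0.47, and the highest reading of all 8 was on the array labelled heterozygous 2. The ranges over the 8 arrays were 1.56 and 1.69, and the centred readings of the 2 probe sets were 0.327 apart. Their order differed within both sets of arrays: wild-type array 3 was the lowest at 1427388_at and wild-type array 1 at 1453628_s_at.

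**Figure D1:**
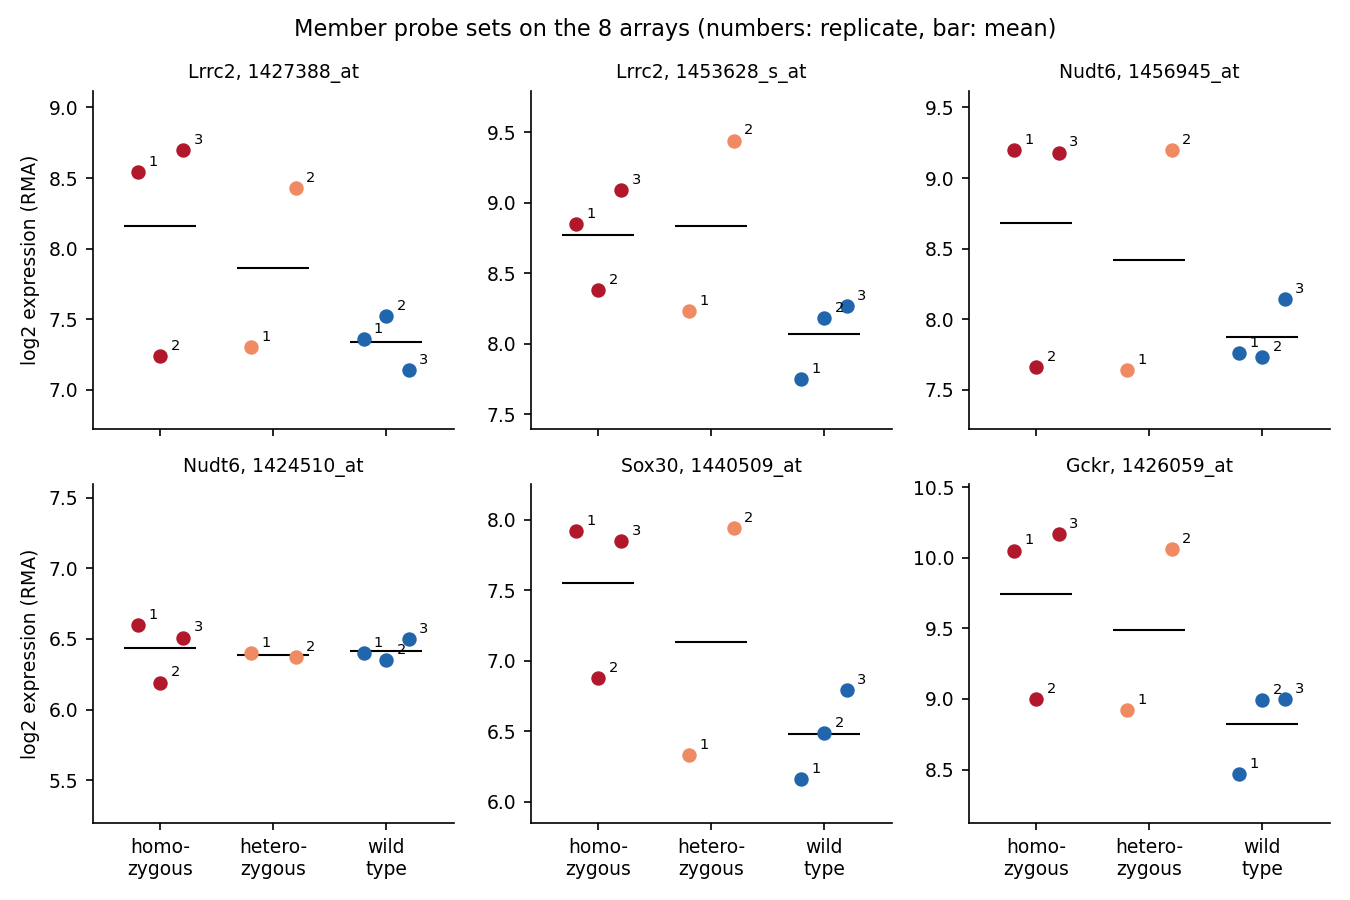
Log2 expression (RMA) of the 6 member probe sets on the 8 arrays, in columns for the homozygous, heterozygous and wild-type labels; points are arrays with their replicate number and bars are group means. In 5 panels homozygous 1, homozygous 3 and heterozygous 2 stand above all other arrays, and at Nudt6 1424510_at all 8 lie between 6.19 and 6.60.

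Among the 3 arrays the member readings did not all follow the Nxnl1 level at 1425696_at. At 1426130_at homozygous 1, homozygous 3 and heterozygous 2 read 5.47, 5.56 and 5.48, so that probe set gave no grading to follow. The array labelled heterozygous 2 read 6.75 for Nxnl1 at 1425696_at, where the other low arrays read 6.13. For Nudt6 1456945_at it read 9.20 where they read 9.20 and 9.18. It was the highest of the 8 arrays for Sox30 at 7.94 and for Lrrc2 1453628_s_at at 9.44, lay between homozygous arrays 1 and 3 for Gckr at 10.06, and was below both for Lrrc2 1427388_at at 8.43. Relative to the wild-type mean, the readings on this array were 1.33 for Nudt6 1456945_at, 1.25 for Gckr, 1.46 for Sox30, and 1.09 and 1.37 at the 2 probe sets of Lrrc2. The array labelled heterozygous 1, with Nxnl1 at 8.65, was at -0.24, 0.10, -0.15, -0.04 and 0.16 in the same order. As Nxnl1 falls into 2 separate clusters of arrays, no correlation with it was computed.

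**Figure D2:**
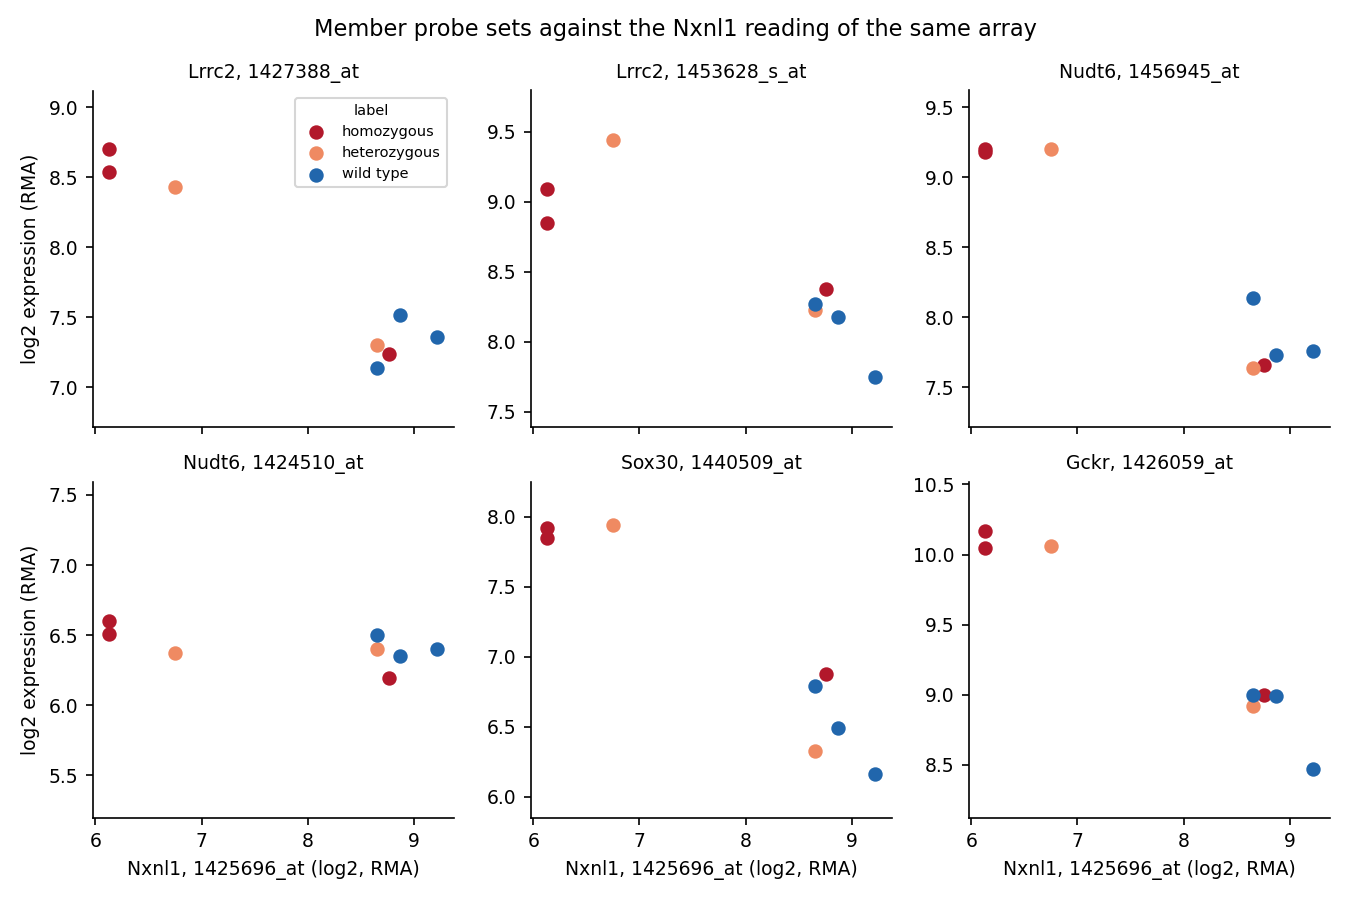
Log2 expression (RMA) of each member probe set against the Nxnl1 reading (1425696_at) of the same array, with 1 point per array coloured by its genotype label. The arrays at Nxnl1 readings of 6.13, 6.13 and 6.75 are above the 5 at 8.65 or more in 5 of the panels.

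Among all 45037 probe sets, 2.18% had their 3 highest readings on these 3 arrays, and 5 of the 6 member probe sets did, as the choice of the genes requires. A gap of at least 0.4 was found at 0.0466%, both probe sets of Lrrc2 included. A gap of at least 0.9 was rarer, at 0.0155% of all probe sets, which is 7 of them. Besides 4 member probe sets, those 7 were of Edn2 (endothelin 2, gap 1.60), Cebpd (the transcription factor C/EBP delta, 0.96) and Cryaa (alpha A crystallin of the lens, 0.93), and these 3 were picked out after their values were seen, as was the size of the gap. The 3 lowest readings lay on these arrays for 1.85% of all probe sets. In that direction, 0.00222% had such a gap, a single probe set, the brighter one of Nxnl1.

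By label, setting homozygous against wild-type mice concerns the retinal transcripts that differ when Nxnl1 is lost, though homozygous array 2 read Nxnl1 at the wild-type level. Limma called 0% of the 45037 probe sets at an adjusted p under 0.05 for homozygous against wild type. An unadjusted p under 0.05 was found at 411 probe sets. That is a smaller share than 0.05 of the table, the share that no differences at all would give. With array weights 5673 had such a p, again with 0 called. Sox30 averaged 7.55 ± 0.58 on the homozygous arrays and 6.48 ± 0.32 in wild type (SD, n = 3 each), a log2 difference of 1.07 (SE 0.43, 2.1-fold). Gckr averaged 9.74 ± 0.64 on the homozygous arrays and 8.82 ± 0.30 in wild type, a difference of 0.92 (SE 0.37, 1.90-fold). At every member probe set the homozygous SD was larger than the wild-type SD.

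Lrrc2 averaged 8.16 ± 0.80 on the homozygous arrays and 7.34 ± 0.19 in wild type at 1427388_at, a difference of 0.82 (SE 0.41). At 1453628_s_at it averaged 8.77 ± 0.36 and 8.07 ± 0.28 on the homozygous and wild-type arrays, a difference of 0.70 (SE 0.31). Nudt6 averaged 8.68 ± 0.88 on the homozygous arrays and 7.88 ± 0.23 in wild type at 1456945_at, a difference of 0.80 (SE 0.49). For its other probe set the homozygous mean was 6.43 ± 0.22 and the wild-type mean 6.41 ± 0.08, a difference of 0.02 (SE 0.12). The homozygous and wild-type arrays overlapped at Nudt6 1456945_at, Lrrc2 1427388_at and Nudt6 1424510_at, where homozygous array 2 was below at least 1 wild-type array. At Sox30 and Lrrc2 1453628_s_at all 3 homozygous arrays read above all wild-type arrays, and at Gckr homozygous array 2 and wild-type array 3 both read 9.00.

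With heterozygous 2 and homozygous 2 left out, the differences of homozygous from wild type were 1.40 (SE 0.19, 2.64-fold) for Sox30, 1.31 (SE 0.15, 2.48-fold) for Nudt6 1456945_at, 1.29 (SE 0.19, 2.45-fold) for Gckr and 1.28 (SE 0.15, 2.42-fold) for Lrrc2 1427388_at. Lrrc2 1453628_s_at differed by 0.90 (SE 0.19) and Nudt6 1424510_at by 0.14 (SE 0.11). Arrays chosen by their Nxnl1 level shape these values and their errors. Limma again called 0% of all probe sets.

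**Figure D3:**
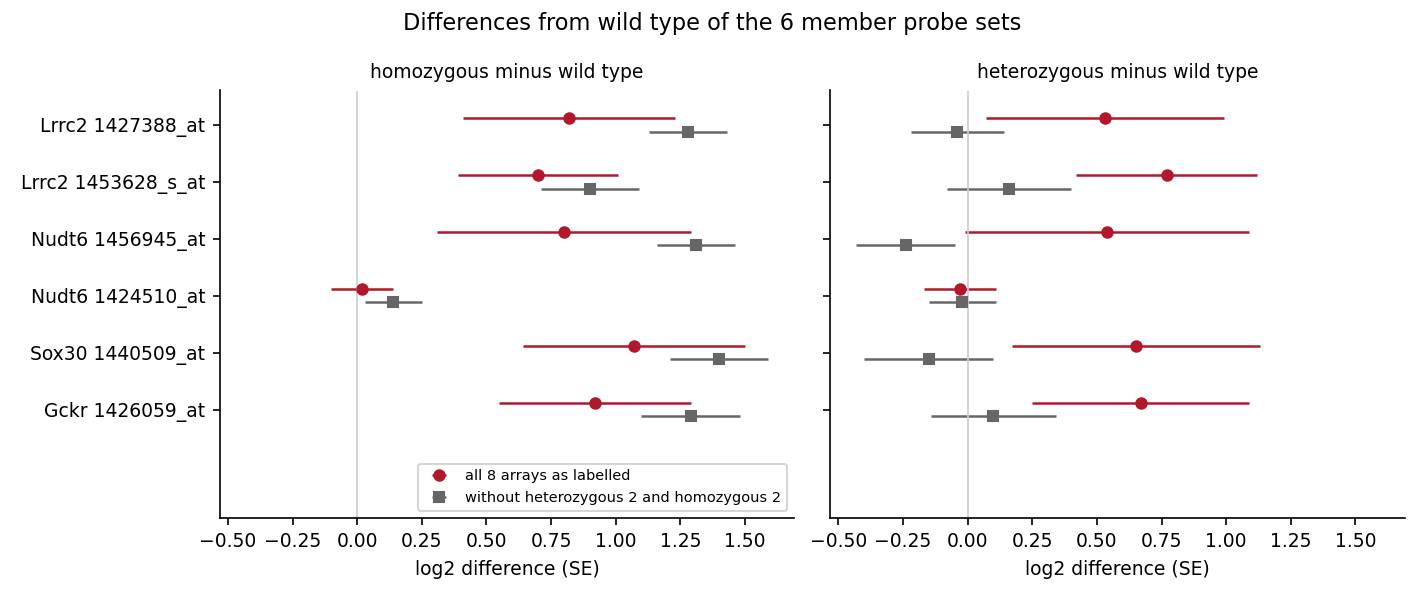
Log2 differences from wild type, with SE from limma, of the 6 member probe sets (rows) for homozygous (left) and heterozygous (right) arrays; circles use all 8 arrays as labelled and squares leave out the arrays labelled heterozygous 2 and homozygous 2. In the homozygous panel the squares lie at 0.90 or more except for Nudt6 1424510_at, and in the heterozygous panel they lie between -0.24 and 0.16.

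By its label, heterozygous against wild type concerns animals that keep an intact copy, though 1 of the 2 arrays, heterozygous 2, read low in Nxnl1. Limma called 0% of the probe sets for this comparison too, with 516 at an unadjusted p under 0.05, also a smaller share than 0.05. Differences were 0.77 (SE 0.35) for Lrrc2 1453628_s_at, 0.67 (SE 0.42) for Gckr, 0.65 (SE 0.48) for Sox30, 0.54 (SE 0.55) for Nudt6 1456945_at, 0.53 (SE 0.46) for Lrrc2 1427388_at and -0.03 (SE 0.14) for Nudt6 1424510_at. A single array decided them. Without the array labelled heterozygous 2 the 5 positive values were 0.16, 0.10, -0.15, -0.24 and -0.04 in that order, and without the array labelled heterozygous 1 they were 1.37, 1.25, 1.46, 1.33 and 1.09. Homozygous against heterozygous gave 0% called, and the member differences ran from -0.06 (SE 0.35) for Lrrc2 1453628_s_at to 0.42 (SE 0.48) for Sox30. With heterozygous 2 and homozygous 2 left out they were 1.55 (SE 0.26) for Sox30, 1.55 (SE 0.21) for Nudt6 1456945_at, 1.31 (SE 0.20) for Lrrc2 1427388_at, 1.19 (SE 0.25) for Gckr, 0.74 (SE 0.25) for Lrrc2 1453628_s_at and 0.16 (SE 0.14) for Nudt6 1424510_at, again with 0% called. The heterozygous array left out decided the sign of 5 of them: Sox30 was at -0.39 without heterozygous 1 and at 1.22 without heterozygous 2, and Nudt6 1456945_at at -0.52 and 1.05. These comparisons share arrays with that of homozygous against wild type.

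The profiles most like each member were found by the root mean square difference of mean-centred values over the 8 arrays. The members were near each other, from 0.167 apart for Sox30 and Gckr to 0.304 for Lrrc2 and Sox30. Outside the 4 genes the nearest was Rdh9 (chromosome 10), of the retinol dehydrogenase family, at 0.10 from Gckr, 0.155 from Lrrc2 and 0.207 from Sox30. It read 7.31, 6.20 and 7.33 on homozygous arrays 1, 2 and 3, 6.09 and 7.08 on the heterozygous arrays, and 5.84, 6.15 and 6.08 in wild type. For Nudt6 it was Cebpd (chromosome 16), at 0.205, with readings between 8.17 and 8.34 on the 3 arrays low in Nxnl1 and between 6.38 and 7.21 on the others. Krt18 (chromosome 15), a keratin of simple epithelia, came after Rdh9 and Gckr for Lrrc2 at 0.24, with 10.74 to 11.10 on those arrays and 9.96 to 10.13 on the others. These points share their libraries, so likeness here says nothing of shared function or control.

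**Figure D4:**
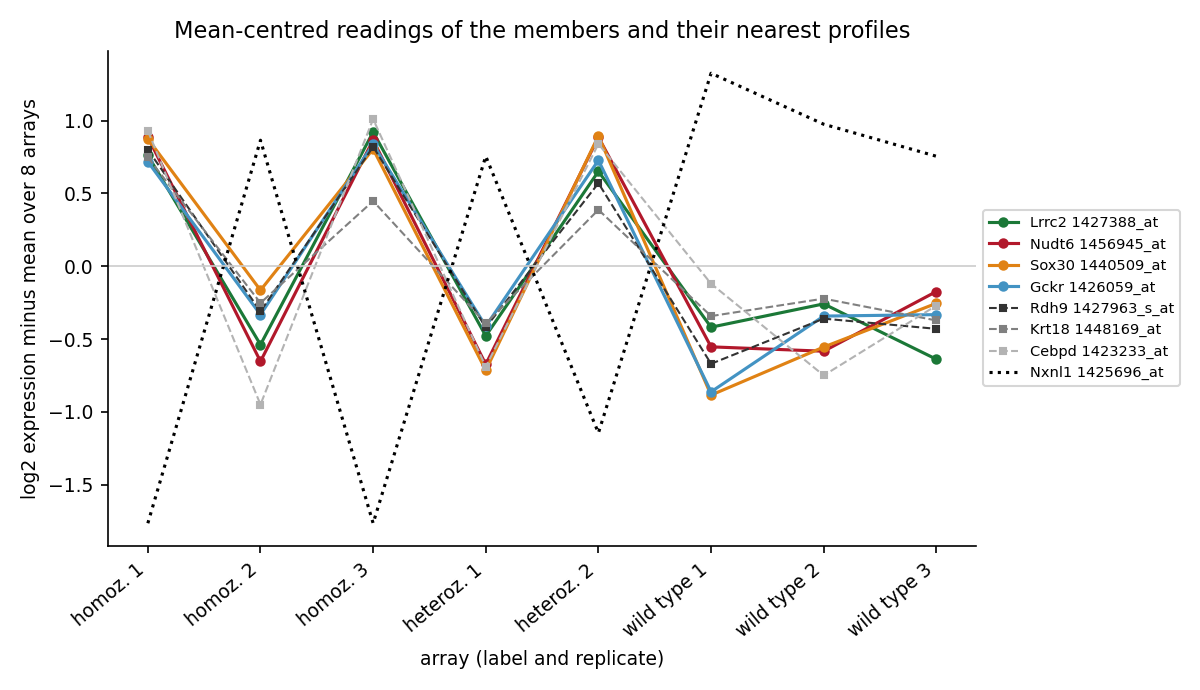
Log2 expression minus its mean over the 8 arrays for the most variable probe set of each member (solid), for Rdh9, Krt18 and Cebpd (dashed) and for Nxnl1 (dotted), in the order homozygous, heterozygous, wild type; lines only join the points of 1 probe set. The members and the dashed genes peak on homozygous 1, homozygous 3 and heterozygous 2, where Nxnl1 is lowest.

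Genes next to the members on the chromosome, which were taken by position and not by their readings, mostly lacked the pattern. The 5 nearest measured genes on each side of each member gave 40 genes. Limma called 0 of them for homozygous against wild type (smallest adjusted p 0.9999), as it called 0% of all probe sets. Of the 40, 27 lay above 0 with a median difference of 0.05, against 52.1% and a median of 0.01 over all probe sets. Around Lrrc2 the differences ran from -0.09 to 0.13, around Sox30 from -0.22 to 0.15 and around Gckr from -0.00 to 0.19. Direct neighbours of Gckr were Fndc4, at 0.19 (SE 0.09), and the zinc finger gene Zfp512, at -0.00 (SE 0.14). Those of Sox30 were Thg1l, a tRNA-histidine guanylyltransferase, at -0.05 (SE 0.15), and the metalloprotease Adam19, at 0.04 (SE 0.09). Those of Lrrc2 were Tdgf1, the EGF-like coreceptor Cripto, at 0.01 (SE 0.09), and Rtp3 at -0.09 (SE 0.13). With heterozygous 2 and homozygous 2 left out, 30 of the 40 neighbours lay above 0, with a median of 0.07, against 51.0% of all probe sets.

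The exception lay beside Nudt6. Fgf2os, a long non-coding RNA gene whose span overlaps Fgf2 but not Nudt6 in the RefSeq annotation, read 4.56, 4.03 and 5.55 on homozygous arrays 1, 2 and 3 at 1443200_at. Its heterozygous readings were 4.03 and 5.07, and its wild-type readings 3.85, 3.90 and 4.17. The 3 arrays low in Nxnl1 were the highest, with a gap of 0.39, at levels near the lower end of the scale. The difference of homozygous from wild type was 0.74 (SE 0.39, limma adjusted p 0.9999), and 1.08 (SE 0.30, adjusted p 0.976) without the arrays labelled heterozygous 2 and homozygous 2. It was 0.32 when a single array was left out, homozygous 3. Fgf2 itself, a growth factor that protects photoreceptors, read 3.40, 3.55 and 3.45 on the homozygous arrays, 3.51 and 3.75 on the heterozygous arrays, and 3.58, 3.13 and 3.69 in wild type, so its groups overlapped, with a difference of -0.00 (SE 0.15). With array weights the differences were 1.34 for Fgf2os and 0.25 for Fgf2. Spata5, the direct neighbour on the other side of Nudt6, differed by 0.09 (SE 0.16). Strand cannot be checked from the array table, so signals of Fgf2os and Fgf2 are told apart only as far as the annotation places each probe set.

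Of the 40 neighbours, 5 had their 3 highest readings on the 3 arrays low in Nxnl1, which is 12.5% against 2.18% of all probe sets. The 2 shares are of unlike sets, as each neighbour is the brightest probe set of its gene and the whole table includes dim and unannotated ones. Apart from Fgf2os these were the centrin gene Cetn4, the actin regulator Cyfip2, Fndc4 and Supt7l, with gaps of at most 0.04, picked out here by that order. In the opposite direction there was 1, Rtp3. Genes of 1 chromosome region share their arrays and are not independent.

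**Figure D5:**
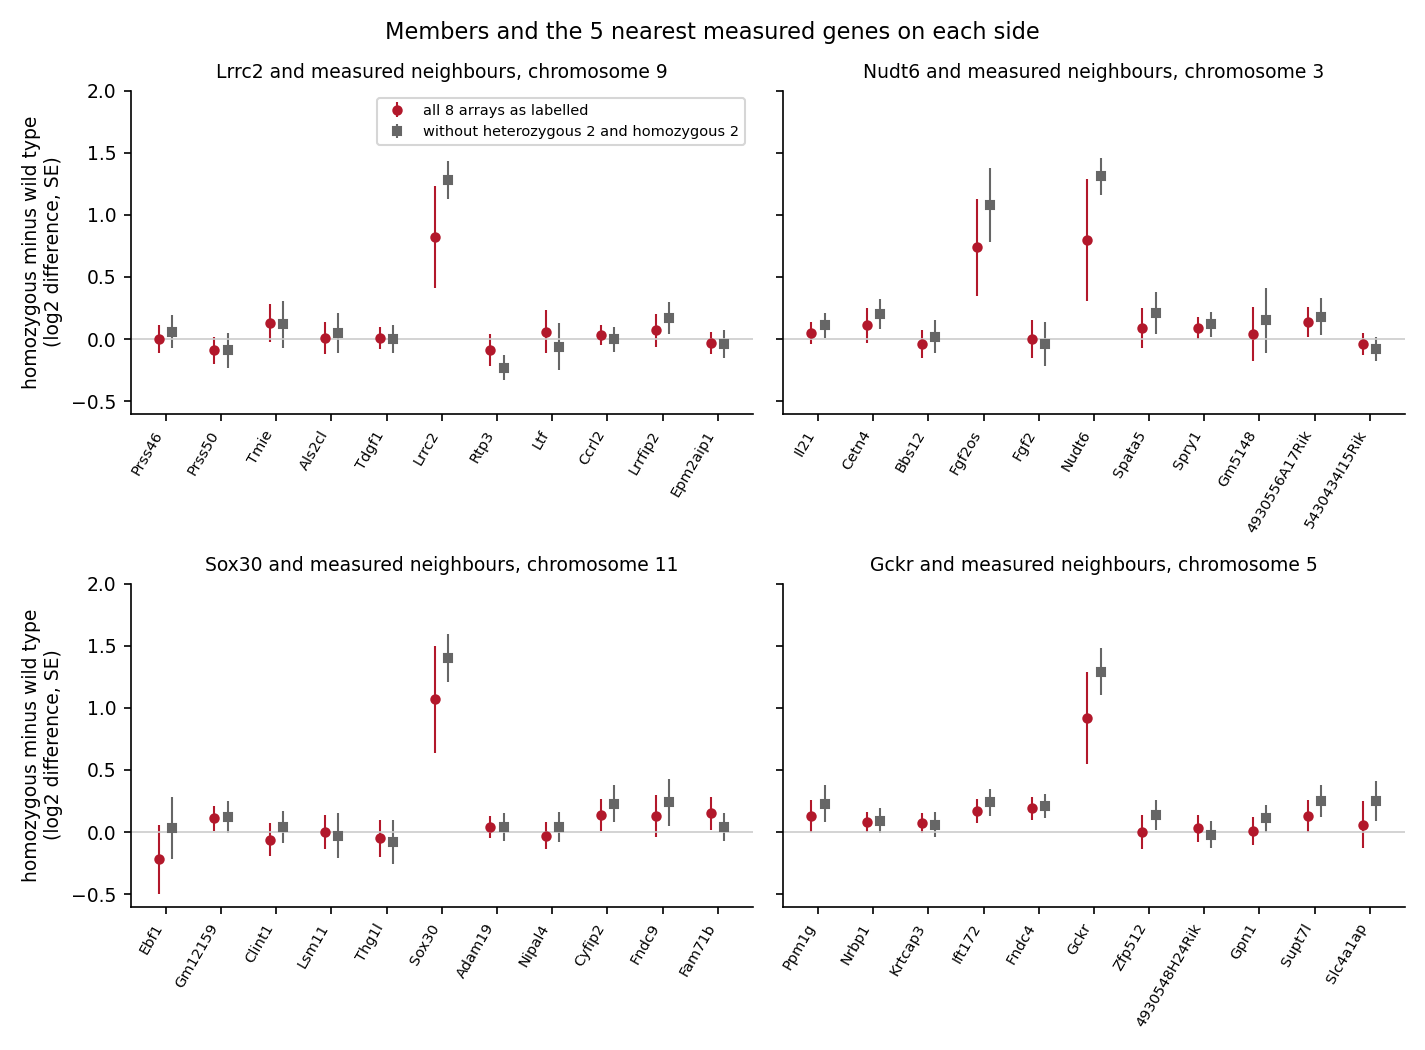
Log2 difference of homozygous minus wild type, with SE from limma, for each member (middle of its panel, most variable probe set) and the 5 nearest measured genes on each side in chromosomal order; circles use all arrays as labelled and squares leave out heterozygous 2 and homozygous 2. Beside the members, Fgf2os at 0.74 and 1.08 stands apart from the other neighbours, which lie between -0.23 and 0.25 in both fits.

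Relatives and partners of the members were taken from lists. Limma called none of them for homozygous against wild type (0 in each list, smallest adjusted p 0.9999), as it called 0% of all probe sets. Of 19 measured Nudix hydrolases and related genes 16 lay above 0, with a median difference of 0.04, against 0.01 over all probe sets. The smallest unadjusted p was that of Nudt5, an ADP-sugar hydrolase, at 0.24 (SE 0.12), with readings of 8.10, 7.78 and 7.97 on the homozygous arrays, 7.62 and 7.88 on the heterozygous arrays, and 7.78, 7.71 and 7.63 in wild type. Nudt22 differed by 0.15 (SE 0.09) and Nudt14 by 0.23 (SE 0.15). In the Fgf2 signalling list 13 of 21 lay above 0, with a median of 0.04. Its feedback inhibitors Spry4 and Spry1 differed by 0.16 (SE 0.09) and 0.09 (SE 0.09), and the ERK phosphatase Dusp6 by -0.21 (SE 0.17). With heterozygous 2 and homozygous 2 left out, 17 of 19 Nudix genes lay above 0, with a median of 0.17, against 51.0% of all probe sets. The same fit had 14 of 21 Fgf2 signalling genes above 0, with a median of 0.07.

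In a list of genes of glucose phosphorylation and its reversal 14 of 25 measured genes lay above 0, with a median of 0.03. The hexokinase-like Hkdc1 differed by -0.18 (SE 0.09), with 7.39, 7.41 and 7.31 on the homozygous arrays, 7.15 and 7.08 on the heterozygous arrays, and 7.65, 7.47 and 7.54 in wild type. The glucose-6-phosphatase gene G6pc2 differed by -0.17 (SE 0.10) and the fructose bisphosphatase gene Fbp2 by 0.15 (SE 0.10), at readings of 2.82 to 3.12 and 5.01 to 5.39. Hk1, a hexokinase, picked out here for its order, had its 3 highest readings on the arrays low in Nxnl1, with a gap of 0.06. Of 19 SOX factors 7 lay above 0 with a median of -0.02, and the leading ones were Sox14 at -0.15 (SE 0.10), the progenitor factor Sox4 at -0.16 (SE 0.11) and the glial factor Sox9 at -0.16 (SE 0.14). Of 50 Lrrc genes, which are named for a shared repeat and are no single family, 40 lay above 0 with a median of 0.06, and all differences were between -0.26 and 0.39. With heterozygous 2 and homozygous 2 left out, 14 of 25 glucose genes lay above 0, with a median of 0.01. For the SOX factors it was 8 of 19 (median -0.00), and for the Lrrc genes 35 of 50 (median 0.11).

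Markers of tissues in which the members are known were not ordered as the members were, but most of them read low. A mean above the median over all probe sets was found for 3 of 19 muscle genes. The same held for 1 of 13 genes of male germ cells and 1 of 11 liver genes. At such levels an order could hardly be seen. The muscle list, for Lrrc2, had 4 of 19 genes above 0 and a median of -0.25, and its summed level (log2 of the summed linear values) was 9.35 to 9.60 on the homozygous arrays, 9.42 on both heterozygous arrays and 9.40 to 10.73 in wild type, where array 1 was high, and without that array the median difference was 0.04. That of male germ cells, for Sox30, had 8 of 13 above 0, a median of 0.00 and summed levels of 8.40 to 8.60 on the homozygous arrays, 8.54 on both heterozygous arrays and 8.49 to 8.58 in wild type. For Gckr, the liver list had 8 of 11 above 0, a median of 0.02 and summed levels of 8.10 to 8.30 on the homozygous arrays, 8.13 to 8.20 on the heterozygous arrays and 8.12 to 8.22 in wild type. With heterozygous 2 and homozygous 2 left out, the medians were -0.21 for muscle, -0.02 for male germ cells and 0.02 for liver. RMA values have no 0, so no marker can be listed as absent.

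Other eye tissues differed more between arrays. Of 14 measured lens genes 10 lay above 0, with a median of 0.34. Among the 14, 3 crystallin genes (Cryaa, Cryab and Crybb2) had their 3 highest readings on the arrays low in Nxnl1, against 2.18% of all probe sets. The summed lens level was 13.71, 10.19 and 12.29 on homozygous arrays 1, 2 and 3, 10.15 and 12.44 on the heterozygous arrays, and 12.93, 10.67 and 10.12 in wild type. Wild-type array 1, with the second highest lens level, had the lowest readings of Gckr, Sox30 and Lrrc2 1453628_s_at. Microglial genes had 11 of 12 above 0 with a median of 0.14 and summed levels of 10.18 to 10.60 on the homozygous arrays, 10.08 to 10.56 on the heterozygous arrays and 10.03 to 10.38 in wild type. The complement genes C1qa and C1qc and the lysosomal gene Cd68, 3 of the 12, had their 3 highest readings on the arrays low in Nxnl1, with gaps of 0.14, 0.04 and 0.04, against 2.18% of all probe sets. The summed microglial level was 10.35 to 10.60 on those 3 arrays and 10.03 to 10.38 on the 5 others, which overlapped at wild-type array 1. The summed lens level was 12.29 to 13.71 on the 3 and 10.12 to 12.93 on the 5. Of the 17 retinal markers, 3 had the same order, against 2.18% of all probe sets. These were the cone genes Gnat2 and Opn1sw and the rod gene Pde6g, with small gaps of 0.04, 0.10 and 0.01. Vessel genes had 11 of 12 above 0 (median 0.15, summed levels of 11.14 to 11.86 on homozygous, 11.38 to 11.55 on heterozygous and 11.29 to 11.35 on wild-type arrays), and RPE and choroid genes 2 of 12 (median -0.12, 12.79 to 13.58 on homozygous, 12.91 to 12.99 on heterozygous and 13.18 to 13.80 on wild-type arrays). Genes of the cornea, iris and ciliary body had 6 of 11 above 0 and a median of 0.02. With heterozygous 2 and homozygous 2 left out, the medians were 0.72 for lens genes and 0.28 for microglial genes. They were 0.18 for vessels, -0.17 for RPE and choroid and -0.04 for cornea, iris and ciliary body. The part of other tissues in the members' readings was not tested.

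The 3 arrays low in Nxnl1 had actin differences between -1.74 and -0.71, and the 5 others between -1.81 and -0.69. Adjusted for this actin measure, the homozygous minus wild-type difference was 1.07 (SE 0.41) for Sox30, 0.92 (SE 0.36) for Gckr, 0.80 (SE 0.45) for Nudt6 1456945_at, and 0.81 (SE 0.35) and 0.71 (SE 0.30) for the 2 probe sets of Lrrc2. Leaving out the array with the lowest actin value in the homozygous and in the wild-type group, number 1 of each, gave 0.72, 0.60, 0.49, 0.64 and 0.51 in that order. The part of RNA quality in the members' readings was not tested.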

How the data were processed

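Total RNA of 8 retina samples was hybridised to 1 array each. The deposited table holds a log2 value for each probe set of an array, and RMA is the tool the authors used, per the submitters' processing notes. No version or option of it is stated there. RMA as usually run makes the distributions of the arrays alike, so a difference is relative to the bulk of transcripts.

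After 64 control probe sets were left out, 45037 were tested. The platform annotation gave 34945 of them 1 symbol, 932 several and 9160 none, and 34741 of these were matched by gene ID to the RefSeq table. Probe sets with several symbols name no gene here. All 4 genes matched a RefSeq promoter.

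Groups came from the sample titles. Limma 3.58.1 in R 4.3.3 fitted 3 group means to all 8 arrays (two-sided moderated test, Benjamini-Hochberg over all probe sets, threshold 0.05), and SE is its moderated error. No source states separate animals, so p-values reflect only how these arrays vary, perhaps technically. A gene in a list or among the neighbours was represented by its brightest probe set, while shares over all probe sets include dim and unannotated ones. For homozygous against wild type 52.1% of all probe sets lay above 0, and 54.7% with those below the median level left out. Named were all member and Nxnl1 probe sets, up to 3 nearest profiles per gene, direct neighbours and Fgf2, and up to 3 genes per list by unadjusted p, without uncharacterised names. Members, lists, motifs and alternatives were chosen with earlier results of these data known. On simulated data for homozygous against wild type (45037 probe sets), limma found 62% of 100 probe sets shifted by 1 and 95% of 100 shifted by 2, and 6 of its 163 calls were false. The simulated noise was independent between arrays, and the shift was the same on all 3 homozygous arrays. In the real data homozygous array 2 kept the wild-type Nxnl1 level, so these shares do not carry over to the real comparison. Alternatives changed normalization, filter, variance model, weights, covariate, block and arrays.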

Additional observations from a re-analysis of the deposited data

How the results depend on the processing

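Limma called 0 probe sets for the 3 comparisons by label under repeated quantile normalization, equal array medians, a filter at the median level, an intensity trend, a robust prior, array weights, only the 2 groups compared, a test with unmoderated variances (819 probe sets at an unadjusted p under 0.05 for homozygous against wild type, where limma had 411), the actin covariate, and without the pairs of arrays named in the results. Leaving out 1 array at a time gave 0 to 1 for homozygous against wild type and 0 to 1 for heterozygous against wild type. The 1 was the same probe set, 1426438_at, which has no single gene symbol in the annotation used, without wild type array 3. Its differences there were 6.29 for homozygous and 6.44 for heterozygous against wild type. Wild-type array 3 read 8.73 for the Y-linked Eif2s3y (1417210_at), where wild-type arrays 1 and 2 read 3.46 and 3.32. The part of Y-linked signal in this call was not tested. None of the 40 neighbours was called under any of these settings. Deviations of arrays with the same replicate number correlated between -0.248 and 0.616, and those of arrays with different numbers between -0.642 and 0.519. The 2 heterozygous arrays mirror each other in this measure, so it cannot settle whether the numbers pair the arrays. With the replicate number as a block 0 probe sets were called in each comparison.

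Homozygous minus wild type kept its sign under all 20 alternatives for 5 member probe sets. Several alternatives could not change this difference: those of filter, variance model and block, and those that left out only a heterozygous array. The genes were also chosen for their high readings, so the kept sign is a description. It ran from 0.72 to 1.40 for Sox30, from 0.60 to 1.29 for Gckr, from 0.49 to 1.31 for Nudt6 1456945_at, from 0.55 to 1.28 for Lrrc2 1427388_at and from 0.51 to 0.90 for Lrrc2 1453628_s_at. Nudt6 1424510_at ran from -0.07 to 0.14. The median of the muscle list was 0.04 without wild type array 1, that of the RPE and choroid list -0.46 with array weights, and that of male germ cells -0.13 after the filter. Averaging a gene's probe sets moved no list median by more than its spread. Heterozygous minus wild type changed sign in 2 of 20 alternatives for Nudt6 1456945_at, Sox30 and Lrrc2 1427388_at, both without the array labelled heterozygous 2. With profiles also scaled to unit SD, the 3 nearest shared 0 genes with those by centred values for Lrrc2, 1 for Nudt6, 1 for Sox30 and 2 for Gckr. Signal near the lower end of the scale limits Fgf2os and Fgf2, and only 2 heterozygous arrays limit that group.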

Other observations

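A gap of at least 0.4 between the 3 arrays low in Nxnl1 and the 5 others was found at 21 probe sets (0.0466% of all), named here after their values were seen. Besides the genes above they included the stress protein gene Nupr1 (chromosome 7, gap 0.63), Antxr2, a receptor of the extracellular matrix (chromosome 5, 0.62), Zfp469 (chromosome 8, 0.57), the matricellular protein Ccn2 (chromosome 10, 0.48), betacellulin (Btc, chromosome 5, 0.44), the AMP-activated kinase subunit Prkaa2 (chromosome 4, 0.43) and Bst1 (chromosome 5, 0.41). Cryab had a gap of 0.65 at 1416455_a_at and Cryba2 of 0.63. In the other direction a gap of this size was found at both probe sets of Nxnl1, 1.90 and 0.66, and at 1 probe set with no single symbol, 0.51. The genes lay on several chromosomes. Antxr2, Btc and Bst1 share chromosome 5 with Gckr, Cryab shares chromosome 9 with Lrrc2, and Zfp469 shares chromosome 8 with Nxnl1.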
